A study of Mus musculus with 6 samples.

Results

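The 10 genes of MHC class II antigen presentation were followed in RNA sequencing of mouse mammary gland: H2-Aa, H2-Ab1, H2-Eb1, Cd74, H2-DMa, H2-DMb1, H2-DMb2, H2-Oa, H2-Ob and Ciita. They were taken by gene symbol from the 17464 symbols deposited for each library, and all 10 were found. The libraries came from wild-type C57BL/6 mice at postnatal day 45, with 3 libraries from glands given recombinant mouse CXCL14 protein (a chemokine) and 3 from untreated glands. The labels give the whole gland as the tissue, while the series title speaks of endothelial cells, and the sources used here do not give the dose, route or duration of the treatment or say whether a lymph node was kept in the tissue. The labels do not tie the 3 libraries of each group to different animals, and the p-values below rest on library-to-library spread that may be technical.

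MHC class II molecules present peptides from endosomes to CD4+ T cells. B cells, dendritic cells and macrophages make them constitutively or on activation, and other cells, among them endothelium and epithelium, can be induced to make them by interferon-gamma. An alpha and a beta chain (H2-Aa with H2-Ab1 form I-A) assemble in the endoplasmic reticulum on the invariant chain encoded by Cd74, which blocks the groove until proteases trim it. The H2-DM heterodimer then removes the remaining invariant chain peptide and lets other peptides bind, and the H2-O heterodimer, found mainly in B cells, inhibits H2-DM. Ciita is the co-activator that switches the whole set on. It does not bind DNA itself but docks on factors bound to the X and Y boxes of class II promoters, where the RFX complex and CREB bind the X box and NF-Y binds the Y box.

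Promoter stretches of 6 of the 10 genes are shown first because they share a pair of short elements. The RefSeq promoter table (GRCm38.p6, C57BL/6J) holds windows from 250 bases before to 50 bases after a start site for 7 of the 10 genes, 8 windows in all with 2 for H2-DMa. H2-Ab1, Cd74 and Ciita are named only. Each stretch below runs 5′ to 3′ along the gene's own strand. The capitals mark AAC, part of the conserved core of the X box, and TGATTGG, the Y box with the reverse complement of CCAAT inside it.
H2-Aa: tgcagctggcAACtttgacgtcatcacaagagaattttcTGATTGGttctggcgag
H2-Eb1: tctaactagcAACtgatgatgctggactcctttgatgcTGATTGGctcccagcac
H2-DMb1: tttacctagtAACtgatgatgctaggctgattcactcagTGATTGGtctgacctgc
H2-DMb2: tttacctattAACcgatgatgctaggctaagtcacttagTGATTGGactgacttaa
H2-Oa: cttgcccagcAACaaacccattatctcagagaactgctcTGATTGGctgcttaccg
H2-Ob: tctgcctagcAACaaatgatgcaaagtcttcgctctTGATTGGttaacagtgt

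The stretches lie at chr17:34287857-34287912 on the minus strand for H2-Aa and, on the plus strand, at chr17:34305768-34305822 for H2-Eb1, chr17:34153089-34153144 for H2-DMb1, chr17:34145118-34145173 for H2-DMb2, chr17:34092295-34092350 for H2-Oa and chr17:34238810-34238862 for H2-Ob. Where more than 1 AAC lay within 20 to 30 bases of TGATTGG, as for H2-Oa with 2, the first was taken. In these 6 windows between 23 and 26 bases separated that AAC from TGATTGG, and TGATTGG began between 45 and 92 bases before the annotated start. AAC followed by TGATTGG after 20 to 30 bases, searched on both strands, was present in 6 of the 8 windows of these genes and in 1.05% of the 32851 windows of the table. TGATTGG alone, which is part of that pattern, was present in the same 6 windows and in 7.82% of all windows. A further pattern, AAC followed after any 2 bases by ATGATG, which shares its AAC with the first, was present in the H2-Eb1, H2-DMb1, H2-DMb2 and H2-Ob windows and in 0.137% of all windows. None of the 3 patterns was found in either H2-DMa window. The patterns were chosen after these sequences were read, so the shares among these genes are no test of enrichment. H2-DMb1 and H2-DMb2 are close copies and do not count as independent matches. These matches describe letters in the windows, and binding was not measured.

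Depth and library quality bear on every value below. FPKM, the deposited unit, is a read number scaled for gene length and library size. Its steps returned whole reads for all 17464 genes, taken as the smallest whole numbers that the steps allow, with between 15245981 and 16983352 reads in a library, and 11516 genes had at least 1 FPKM in at least 3 libraries and were tested. CXCL14 replicate 1 and untreated replicate 1 were close to each other: the median absolute log2 difference over all tested genes was 0.066 between them and between 0.119 and 0.282 for the other 14 pairs of libraries. Results are therefore given with and without CXCL14 replicate 1. Dropping it for its likeness to an untreated library favours larger differences. Epithelial markers of the gland were present, with a summed level over 7 luminal markers between 216 and 278 FPKM with CXCL14 and between 108 and 335 FPKM in untreated glands. Markers of basal epithelium were near 0, with a sum over 5 genes between 2.88 and 5.95 FPKM with CXCL14 and between 0.505 and 4.38 FPKM in untreated glands. The sum over 5 fibroblast markers was 404, 34.1 and 43.2 FPKM in CXCL14 replicates 1, 2 and 3. In untreated replicates 1, 2 and 3 it was 431, 333 and 40.7 FPKM, and the span was 12.7-fold. The sum over 5 adipocyte markers was low, between 6.91 and 15.1 FPKM in untreated glands, and spanned 4.34-fold over all libraries. B-cell markers, a list of 9 genes, summed to at least 1170 FPKM in every library, above the sum of each of these shorter lists. The lists differ in length, so their sums do not rank the cell types. In untreated replicate 1 the median was 87.6 FPKM over the B-cell markers and 117 FPKM over the fibroblast markers. In untreated replicate 3 it was 84.9 and 9.92 FPKM. In whole tissue, fewer cells of a type and less RNA per cell cannot be told apart.

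Class II transcripts were abundant as a set, mainly through Cd74, H2-Aa, H2-Ab1 and H2-Eb1. Their levels in CXCL14-treated glands overlapped those in untreated glands. Together the 10 genes made up between 2.24% and 2.43% of all FPKM with CXCL14 and between 2.29% and 2.41% in untreated glands. Of the recovered reads they made up between 1.22% and 1.38% with CXCL14 and between 1.23% and 1.43% in untreated glands. The groups overlapped for all 10 genes, while they did not overlap for 13.1% of all tested genes. By limma-trend, a linear model fitted across all tested genes with the Benjamini-Hochberg adjustment, 0 of the 10 genes passed an adjusted p of 0.05, with adjusted p between 0.667 and 0.975 and unadjusted p between 0.280 and 0.924. The background was the same, since 0.0% of all tested genes passed, and 895 of them (7.77%) had an unadjusted p under 0.05. A second tool, voom applied to recovered reads, called 0 genes and put 842 below that unadjusted p. Over the 10 genes the median log2 fold change was -0.02, beside -0.06 over all tested genes.

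**Figure D1:**
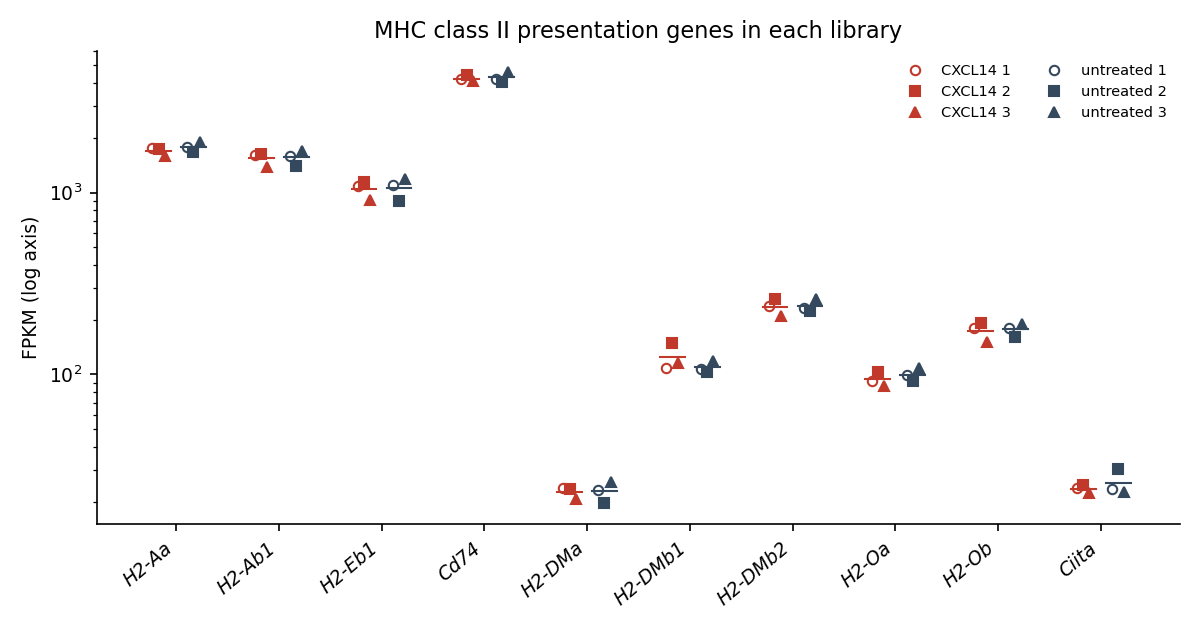
FPKM on a log axis of the 10 genes in each library, with a point for each library (CXCL14 in red on the left, untreated in dark blue on the right of each pair, open circles for replicate 1, squares for 2, triangles for 3) and a bar for each group mean. Points of the groups overlap for every gene, and levels run from 19.7 FPKM for H2-DMa to 4585 FPKM for Cd74.

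Of the classical chains, H2-Aa, the I-A alpha chain, was at 1761, 1735 and 1582 FPKM in CXCL14 replicates 1, 2 and 3, against 1773, 1674 and 1903 FPKM in untreated replicates 1, 2 and 3. CXCL14 replicate 3 was the lowest library and untreated replicate 3 the highest, with the others between them. The log2 fold change was -0.07 (SE 0.12, 95% interval from -0.37 to 0.22, limma-trend adjusted p = 0.818), so the interval runs from 0.775-fold to 1.16-fold. H2-Ab1, the I-A beta chain, was at 1613, 1638 and 1384 FPKM with CXCL14 and at 1594, 1394 and 1694 FPKM in untreated glands. A low library stood in each group, CXCL14 replicate 3 and untreated replicate 2, and the log2 fold change was -0.01 (SE 0.14, 95% interval from -0.34 to 0.32).

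H2-Eb1, the I-E beta chain, was low in the same libraries as H2-Ab1. It was at 1086, 1148 and 913 FPKM with CXCL14 and at 1100, 898 and 1190 FPKM in untreated glands, again low in CXCL14 replicate 3 and untreated replicate 2. Its log2 fold change was -0.02 (SE 0.16), with a 95% interval from -0.39 to 0.36, from 0.763-fold to 1.28-fold. C57BL/6 mice carry a defective I-E alpha gene and show no I-E on their cells, so this transcript is made without its partner chain. H2-Eb2, a second E beta gene next to it, was low, at 18.7, 20.3 and 17.1 FPKM with CXCL14 and at 17.8, 21.7 and 20.9 FPKM in untreated glands.

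Cd74 was the most abundant of the 10 and ranked second among all 17464 genes in every library. It was at 4199, 4408 and 4100 FPKM in CXCL14 replicates 1, 2 and 3, against 4225, 4075 and 4585 FPKM in untreated replicates 1, 2 and 3. The highest and the lowest library were both untreated, and they differed by 1.13-fold, the smallest span of the 10 genes. The log2 fold change was -0.02 (SE 0.13), with a 95% interval from -0.34 to 0.30. The protein also serves as a surface receptor for the cytokine MIF, together with CD44 and the chemokine receptors CXCR2, CXCR4 and ACKR3.

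Of the peptide-loading genes, H2-DMb1, a beta chain of H2-DM, was the only one of the 10 with a positive log2 fold change on the deposited scale (8 of the 10 were positive with median-ratio scaling). It was at 109, 149 and 115 FPKM in CXCL14 replicates 1, 2 and 3, and at 108, 103 and 119 FPKM in untreated replicates 1, 2 and 3. CXCL14 replicate 2 stood above the other libraries, CXCL14 replicates 1 and 3 lay within the untreated range, and the log2 fold change was 0.17 (SE 0.14, 95% interval from -0.17 to 0.50, limma-trend adjusted p = 0.667). Without CXCL14 replicate 2 it was 0.03. H2-DMb2, the neighbouring beta chain gene, was at 237, 259 and 208 FPKM with CXCL14 and at 231, 224 and 259 FPKM in untreated glands, with a log2 fold change of -0.02 (SE 0.12).

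The ratio of the H2-DM beta chain genes within a library separated CXCL14 replicates 2 and 3 from the others. H2-DMb1 over H2-DMb2 was 0.460, 0.574 and 0.553 in CXCL14 replicates 1, 2 and 3, against 0.467, 0.459 and 0.459 in untreated replicates 1, 2 and 3. This ratio was noticed in the data and not tested. The genes are close copies: of the 100-base windows of the H2-DMb1 coding transcript in GENCODE M21, 13.7% also occurred in H2-DMb2 transcripts, and 10.3% of the H2-DMb2 windows occurred in H2-DMb1. The sources used here do not say how reads shared by such copies were counted, so the split between them is uncertain. Other pairs among the 10 genes, and pairs with H2-Eb2, shared no window of that length.

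H2-DMa, the alpha chain of H2-DM, was at 23.7, 23.4 and 20.6 FPKM in CXCL14 replicates 1, 2 and 3, and at 23.2, 19.7 and 25.7 FPKM in untreated replicates 1, 2 and 3. Here too CXCL14 replicate 3 and untreated replicate 2 were low. Between the groups the log2 fold change was -0.01 (SE 0.12, 95% interval from -0.31 to 0.28). Its level relative to its partner chains depends on the length the authors divided by. The reads recovered for H2-DMa, between 2938 and 3215 with CXCL14 and between 2521 and 3583 in untreated glands, were about as many as for H2-DMb1, which had between 2177 and 3153 and between 2029 and 2557. The FPKM of H2-DMa was nevertheless between 0.157 and 0.217 of that of H2-DMb1 with CXCL14 and between 0.192 and 0.216 in untreated glands. If the recovered numbers are the true read numbers, the FPKM implies a length of 8385 bases for H2-DMa and of 1293 bases for H2-DMb1.

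H2-Oa and H2-Ob encode the chains of H2-O. H2-Oa was at 92.1, 103 and 86.7 FPKM in CXCL14 replicates 1, 2 and 3, and at 99.3, 91.9 and 108 FPKM in untreated replicates 1, 2 and 3, with a log2 fold change of -0.09 (SE 0.11, 95% interval from -0.35 to 0.17). H2-Ob was at 180, 191 and 152 FPKM with CXCL14 and at 180, 161 and 190 FPKM in untreated glands, with a log2 fold change of -0.03 (SE 0.12, 95% interval from -0.32 to 0.27). For both genes CXCL14 replicate 3 was the lowest library and the groups overlapped. H2-Oa over H2-Ob stayed between 0.512 and 0.572 with CXCL14 and between 0.551 and 0.570 in untreated glands.

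Ciita did not follow the genes it switches on across these libraries. It was at 23.7, 24.5 and 22.3 FPKM in CXCL14 replicates 1, 2 and 3, against 23.6, 30.1 and 22.7 FPKM in untreated replicates 1, 2 and 3. Untreated replicate 2, where H2-Eb1, Cd74, H2-DMa and H2-DMb1 had their lowest values, held the highest Ciita level, and the other 5 libraries lay close together. The log2 fold change was -0.10 (SE 0.13, 95% interval from -0.40 to 0.20, limma-trend adjusted p = 0.756), and without untreated replicate 2 it was 0.02. Ciita over H2-Aa was 0.0134, 0.0141 and 0.0141 with CXCL14 and 0.0133, 0.0180 and 0.0119 in untreated glands.

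**Figure D2:**
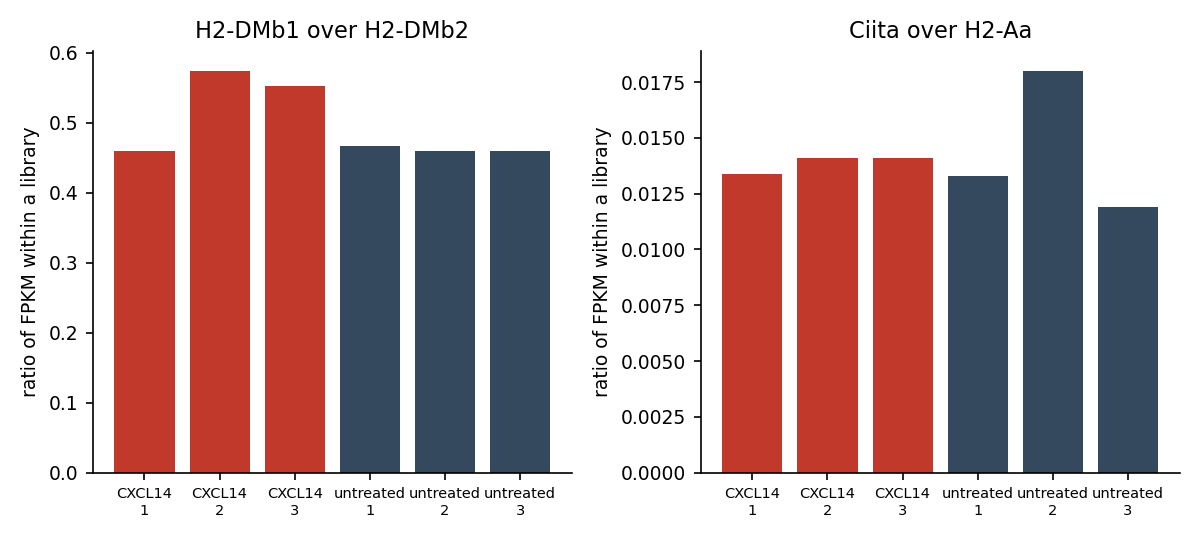
Ratio of FPKM within each library, from 0, for H2-DMb1 over H2-DMb2 (left panel) and Ciita over H2-Aa (right panel), with a bar for each library (CXCL14 in red, untreated in dark blue). H2-DMb1 over H2-DMb2 was 0.574 and 0.553 in CXCL14 replicates 2 and 3 and between 0.459 and 0.467 in the other 4 libraries, and Ciita over H2-Aa was highest, at 0.0180, in untreated replicate 2.

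In FPKM, a level per length, the order was Cd74, H2-Aa, H2-Ab1, H2-Eb1, H2-DMb2, H2-Ob, H2-DMb1, H2-Oa and then Ciita and H2-DMa. The ranges over the 6 libraries overlapped between H2-Aa and H2-Ab1, between H2-DMb1 and H2-Oa, and between Ciita and H2-DMa. Within each library H2-Aa and H2-DMb1 were still the higher of their pairs. Ciita was below H2-DMa only in untreated replicate 3, at 22.66 against 25.75 FPKM. The order, and ratios between genes, also depend on the lengths the authors divided by, which are not stated. If the recovered numbers are the true read numbers, those lengths were 615 bases for H2-Oa, 2948 for H2-Ob and 9845 for Ciita. Within each library H2-Aa exceeded H2-Ab1, by between 1.06-fold and 1.14-fold with CXCL14 and between 1.11-fold and 1.20-fold in untreated glands. Cd74 over H2-Aa lay between 2.38 and 2.59 with CXCL14 and between 2.38 and 2.43 in untreated glands.

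The spread of these genes was small beside the size of change the fit could bound. The SD of log2(FPKM + 1) over the 6 libraries was between 0.07 for Cd74 and 0.19 for H2-DMb1, beside a median of 0.19 over all tested genes and 0.17 over the 3442 whose mean reached 20 FPKM. The coefficient of variation within a group was between 3.71% and 17.3% with CXCL14 and between 6.10% and 15.9% in untreated glands. Counting error at the lowest read number of a gene was between 0.336% for Cd74 and 3.41% for H2-Oa, so reads did not limit the precision. Over the 10 genes, the 95% intervals in the fit of all 6 libraries reached from 0.757-fold, for Ciita, to 1.42-fold, for H2-DMb1. Changes within these bounds cannot be told from none with 3 libraries a group. The bounds hold for that fit only, and other fits gave wider ones. On the log2 scale, the interval of H2-DMb1 reached 0.64 with median-ratio scaling. Without CXCL14 replicate 1 the intervals reached from -0.50, for H2-Eb1, to 0.60, for H2-DMb1. With both libraries numbered 1 left out they reached from -0.73, for Cd74, to 0.70, for H2-DMb1.

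Leaving out CXCL14 replicate 1 gave calls in a small share of all genes. At that share, 0 calls among 10 genes do not set these genes apart. In that fit limma-trend called 597 of the 11516 genes (5.18%; 249 higher and 348 lower), and 0 of the 10 class II genes, with a lowest adjusted p of 0.282 for H2-DMb1. For H2-DMb1 the log2 fold change in that fit was 0.25 (SE 0.14), those of the other 9 genes lay between -0.11 and -0.01, and the median was -0.05 over the 10 genes and -0.10 over all tested genes. The groups still overlapped for all 10 genes, while they did not overlap for 48.4% of tested genes. Median-ratio scaling of the same 5 libraries, tried after seeing the data, called 318 genes higher and 121 lower. On that scaling H2-DMb1 was at 0.38, the other 9 genes were between 0.01 and 0.11, and 0 of the 10 were called. With both libraries numbered 1 left out, 0.13% of genes (0.122% higher, 0.00868% lower) and 0 of the 10 were called. The sign of small differences depended on scaling: with median-ratio scaling of the FPKM 8 of the 10 genes were positive, with a median of 0.06, and 0 were called.

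**Figure D3:**
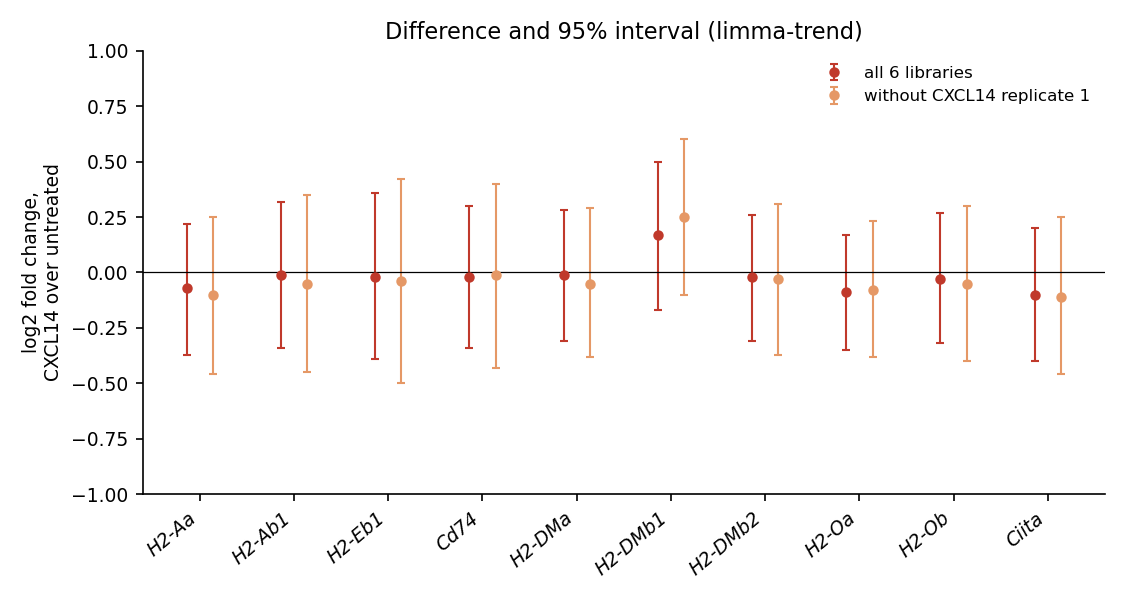
Log2 fold change, CXCL14 over untreated, on the log2(FPKM + 1) scale with 95% intervals from limma-trend, for all 6 libraries (red, left of each pair) and without CXCL14 replicate 1 (orange, right). Every interval includes 0, and H2-DMb1 has the highest value in both fits, 0.17 and 0.25.

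Markers of some cells that carry class II differed between the libraries more than the class II transcripts did. The sum of H2-Aa, H2-Ab1, H2-Eb1 and Cd74 was between 7980 and 8930 FPKM with CXCL14 and between 8041 and 9371 FPKM in untreated glands, a span of 1.17-fold. The summed level of 9 B-cell markers, among them Cd79a and Cd79b of the B-cell receptor complex, spanned 1.23-fold, between 1170 and 1380 FPKM with CXCL14 and between 1320 and 1440 FPKM in untreated glands. Class II chains and Cd74 over B-cell markers was 6.68, 6.47 and 6.83 in CXCL14 replicates 1, 2 and 3. In untreated replicates 1, 2 and 3 it was 6.61, 6.07 and 6.50, a span of 1.13-fold over all libraries. Cd79a alone gave 573 of the 1300 FPKM of the B-cell sum in CXCL14 replicate 1. Pearson's r with the mean log2 level of H2-Aa, H2-Ab1, H2-Eb1 and Cd74 differed between the B-cell markers. It was 0.9 for Cd79b, 0.8 for Cd79a, 0.67 for Blnk and 0.51 for Fcrla. For Fcer2a it was 0.27, for Ms4a1 0.24, for Cr2 0.08, for Pax5 0.05 and for Cd22 0.0. The ratio was taken for the sum only and not for single markers, and r does not measure its span.

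The markers of the other professional antigen-presenting cells spanned about 6-fold over the same libraries. The sum over 9 dendritic cell markers was 77.5, 12.7 and 19.8 FPKM in CXCL14 replicates 1, 2 and 3, against 80.4, 50.4 and 41.0 FPKM in untreated replicates 1, 2 and 3. Clec10a alone gave 33.0 FPKM of this sum in CXCL14 replicate 1 and 34.8 FPKM in untreated replicate 1. Zbtb46 did not follow the sum, at 2.51, 2.70 and 5.01 FPKM with CXCL14 and 2.65, 4.09 and 3.69 FPKM in untreated glands. Its log2 fold change was -0.05, and those of the other tested markers of this list lay between -1.26 and -0.58. The sum over 10 macrophage markers was 312, 50.1 and 78.6 FPKM with CXCL14 and 312, 232 and 91.3 FPKM in untreated glands, with untreated replicate 3 near CXCL14 replicates 2 and 3. Class II chains and Cd74 over dendritic cell markers therefore spanned 6.51-fold, and over macrophage markers 6.42-fold. With all 6 libraries 0 of the 9 B-cell, 0 of the 7 tested dendritic cell and 0 of the 10 macrophage markers passed, with median log2 fold changes of -0.09, -0.71 and -0.78. Without CXCL14 replicate 1, 3 of the 7 dendritic cell markers fell, beside 3.02% of all genes, and 0 of the B-cell and macrophage markers were called. No marker of these 3 lists was at 0 in all libraries. The part of these cells in the class II values was not tested.

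**Figure D4:**
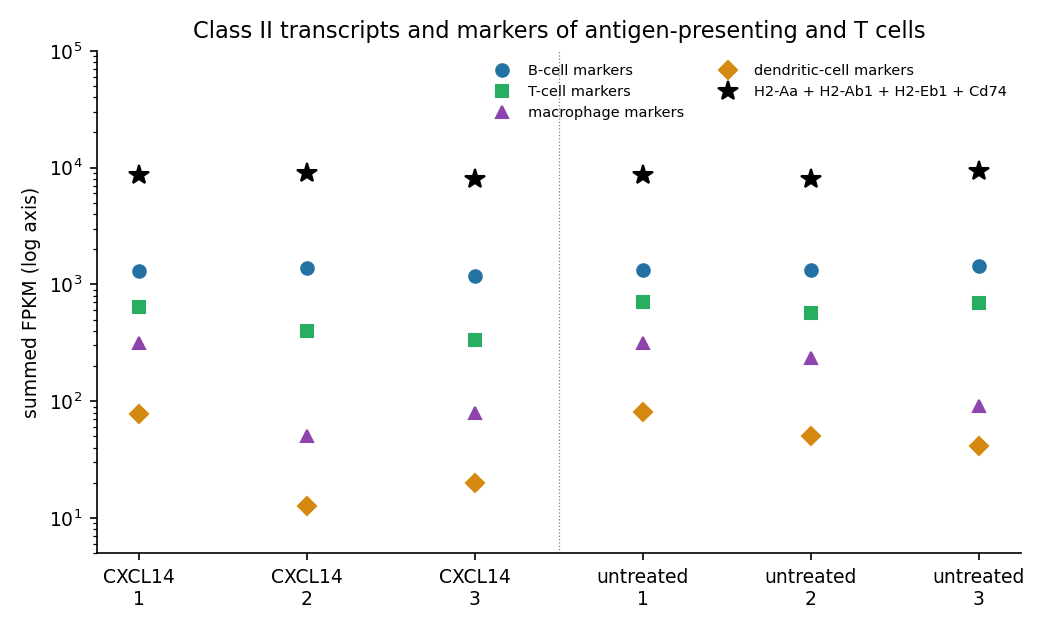
Summed FPKM on a log axis in each library (CXCL14 left of the dotted line, untreated right of it) for H2-Aa, H2-Ab1, H2-Eb1 and Cd74 together and for markers of B cells, T cells, macrophages and dendritic cells. The class II sum spans 1.17-fold and the B-cell markers 1.23-fold across the 6 libraries, while dendritic cell markers run from 12.7 to 80.4 FPKM and macrophage markers from 50.1 to 312 FPKM.

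The genes whose pattern was most like that of H2-Aa, H2-Ab1, H2-Eb1 and Cd74 over the 6 libraries were Rps6, Rpl7a, Pdcd4, Fbxo11 and Phf5a. Pearson's r of log2(FPKM + 1) with the mean of the 4 genes was between 0.987 and 0.995. Of the 7824 genes searched, 269 reached at least 0.9, so a high r was not particular to these 5. Rps6 and Rpl7a encode ribosomal proteins. Rps6 was at 1150, 1180 and 964 FPKM in CXCL14 replicates 1, 2 and 3, and at 1170, 956 and 1300 FPKM in untreated replicates 1, 2 and 3, low in the same libraries as H2-Ab1 and H2-Eb1. The genes most like Ciita were Ttc37, Erbin, Zfp292, Mapk9 and Med1, with r between 0.966 and 0.977, and 44 of the 7824 genes reached at least 0.9. Each of the 5 named was highest in untreated replicate 2. All values of a library share its depth and tissue sample, and these correlations are a description.

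Among 20 genes of class II transcription, 0 passed the test with all 6 libraries, 11 had positive log2 fold changes and the median was 0.01. The RFX subunit genes Rfx5 and Rfxap and the NF-Y subunit genes Nfya, Nfyb and Nfyc had log2 fold changes between -0.08 and 0.02. Irf4, a transcription factor of activated B cells and plasma cells, was at 63.7, 148 and 143 FPKM in CXCL14 replicates 1, 2 and 3, against 56.6, 62.1 and 53.2 FPKM in untreated replicates 1, 2 and 3. All CXCL14 libraries lay above all untreated ones, with CXCL14 replicate 1 near the untreated level, and groups did not overlap for 13.1% of all tested genes. Irf4 had a fitted log2 difference of 0.94 (SE 0.32) and a limma-trend adjusted p of 0.573. For Creb1, an X box factor, it was -0.34 (SE 0.14), and for Rfxank, another RFX subunit gene, -0.24 (SE 0.11). Ifng, which encodes the inducer interferon-gamma, was low, at 4.62, 3.31 and 3.43 FPKM with CXCL14 and at 4.58, 3.44 and 2.03 FPKM in untreated glands.

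Without CXCL14 replicate 1, 2 of the 20 rose (2.16% of all genes rose in that fit) and 2 fell (3.02% of all genes fell). Irf4 rose, with a log2 fold change of 1.33 and a limma-trend adjusted p of 0.0220, and Irf1, an interferon-induced factor that drives Ciita, with 0.70. Creb1 and Spi1, the myeloid and B-cell factor PU.1, fell, with -0.49 and -0.60. Spi1 was at 23.4, 14.8 and 14.9 FPKM in CXCL14 replicates 1, 2 and 3, and at 24.5, 24.1 and 20.8 FPKM in untreated replicates 1, 2 and 3. The dendritic cell and macrophage sums given above were also low in CXCL14 replicates 2 and 3. The macrophage sum was low in untreated replicate 3 as well, at 91.3 FPKM, where Spi1 was at 20.8 FPKM. The summed level of 4 plasma cell markers was 157, 202 and 228 FPKM in CXCL14 replicates 1, 2 and 3, and 149, 113 and 108 FPKM in untreated replicates 1, 2 and 3. The part of these cells in the results was not tested. With median-ratio scaling as well, Irf1 and Irf4 were called and Creb1 and Spi1 were not. With both libraries numbered 1 left out, 0 of the 20 were called.

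Of 17 genes of endosomal processing and class II turnover, 0 passed with all 6 libraries, with 8 positive and a median of -0.01. Ctss, the protease that trims the invariant chain in B cells and dendritic cells, was at 209, 146 and 134 FPKM in CXCL14 replicates 1, 2 and 3, and at 222, 198 and 224 FPKM in untreated replicates 1, 2 and 3. CXCL14 replicates 2 and 3 lay below every other library, and the log2 fold change was -0.42 (SE 0.18, limma-trend adjusted p = 0.573). Marchf1, a ubiquitin ligase that sends class II and CD86 to degradation, showed -0.34 (SE 0.18) on the same scale, and Ctsz, another cathepsin, -0.23 (SE 0.13). Without CXCL14 replicate 1, 2 of the 17, Ctss (-0.61) and Marchf1 (-0.54), fell, beside 3.02% of all genes, with limma-trend adjusted p = 0.0437 and 0.0476. The summed dendritic cell markers, at 12.7 and 19.8 FPKM, and macrophage markers, at 50.1 and 78.6 FPKM, were also low in CXCL14 replicates 2 and 3. The macrophage sum was low in untreated replicate 3 as well, at 91.3 FPKM, where Ctss was at 224 FPKM. The part of these cells in the fall of Ctss and Marchf1 was not tested. Neither Ctss nor Marchf1 was called with median-ratio scaling in addition, or with both libraries numbered 1 left out.

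Of 9 surface partner and co-stimulation genes 0 passed with all 6 libraries, with 4 positive and a median of -0.07. Cd83, a surface protein that opposes Marchf1 and keeps class II and CD86 on the cell, was at 180, 333 and 281 FPKM in CXCL14 replicates 1, 2 and 3, against 180, 141 and 168 FPKM in untreated replicates 1, 2 and 3. Cd83 differed by 0.66 on the log2 scale (SE 0.23, limma-trend adjusted p = 0.573), with CXCL14 replicate 1 at the level of untreated replicate 1. Cd86, a co-stimulator, was at 22.6, 30.2 and 25.9 FPKM with CXCL14 and at 22.0, 16.4 and 22.3 FPKM in untreated glands, above the untreated range in all 3, with a log2 fold change of 0.36 (SE 0.16). Cd4, the co-receptor that binds class II, was at 66.3, 44.0 and 43.4 FPKM with CXCL14 and at 69.7, 69.7 and 76.8 FPKM in untreated glands, a log2 fold change of -0.51 (SE 0.17). The groups did not overlap for Cd86, higher with CXCL14, or for Cd4, lower with it, beside 13.1% of all tested genes.

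Without CXCL14 replicate 1, 2 of the 9 rose, Cd83 (0.91) and Cd274 (0.69), which encodes the inhibitory ligand PD-L1, and 2 fell, Cd80 (-1.05) and Cd4 (-0.71), with limma-trend adjusted p between 0.0302 and 0.0420. In that fit 2.16% of all genes rose and 3.02% fell. These 4 were also called with median-ratio scaling in addition, and 0 were called with both libraries numbered 1 left out. The summed T-cell markers, which include Cd4, were 646, 396 and 336 FPKM in CXCL14 replicates 1, 2 and 3, and 701, 568 and 693 FPKM in untreated replicates 1, 2 and 3. The neutrophil markers summed to 27.3, 186 and 254 FPKM with CXCL14 and to 33.8, 13.6 and 6.46 FPKM in untreated glands. The part of these cells in the results was not tested.

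**Figure D5:**
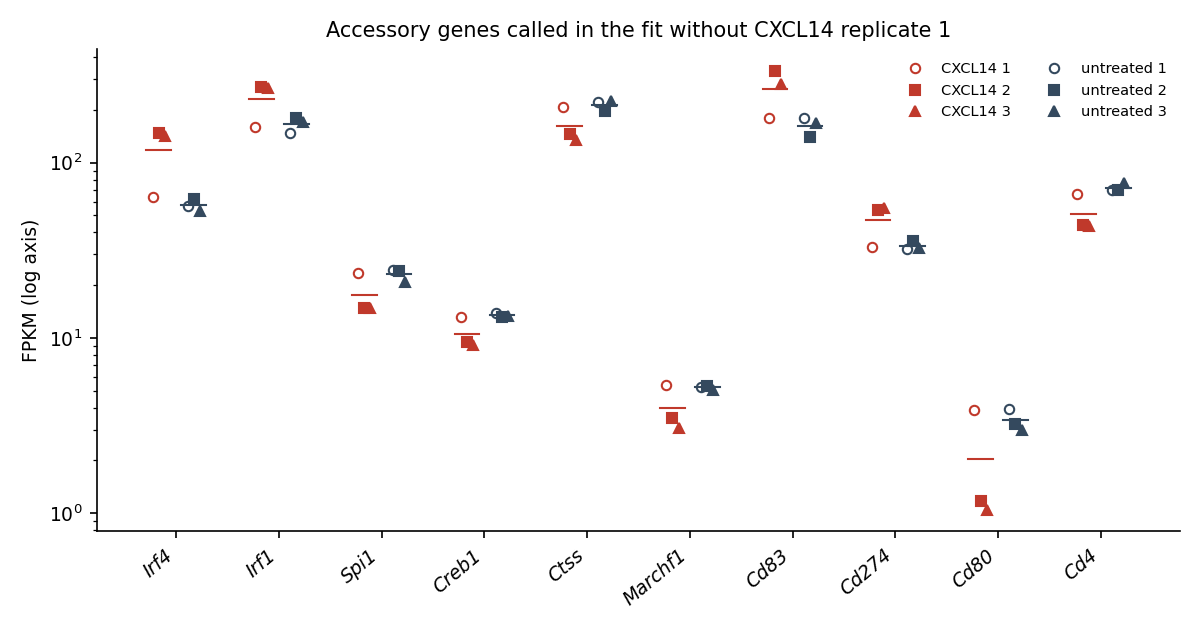
FPKM on a log axis in each library of the 10 accessory genes called in the fit without CXCL14 replicate 1, drawn as in the plot of the class II genes. In the CXCL14 group the open circle (replicate 1) lies near the untreated points and replicates 2 and 3 lie apart, for example 63.7, 148 and 143 FPKM for Irf4 and 209, 146 and 134 FPKM for Ctss. Choosing genes called only without replicate 1 favours this pattern, so it is no separate result.

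Genes that lie beside the class II genes in the MHC did not pass the test either. Of 8 tested, 0 passed in the fit of all 6 libraries or without CXCL14 replicate 1, and in the fit of all 6 their log2 fold changes lay between -0.15 and 0.19. The 3 with the smallest unadjusted p were Brd2, a chromatin reader, with 0.19 (SE 0.10), the immunoproteasome gene Psmb9 with -0.15 (SE 0.11) and Btnl2, a butyrophilin-like gene, with 0.15 (SE 0.15). Of 5 tested partners of Cd74 as a MIF receptor, 0 passed in either fit. On the log2 scale Cxcr4 differed by 0.37 (SE 0.16), Mif, the ligand, by -0.23 (SE 0.14) and Ddt, its homologue, by -0.08 (SE 0.11). Cxcr2 did not reach the FPKM minimum and was not tested.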

How the data were processed

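RNA was extracted from frozen mammary gland with Trizol and 2 µg per sample went into NEBNext Ultra libraries, per the labels' protocols. The authors deposited FPKM per gene symbol, 1 file per library. Bowtie2 2.2.3, HISAT2 2, HTSeq 0.6.0 and build mm8 appear in the submitters' processing notes without their roles. Gene lengths, annotation and strand setting are not stated in those sources. Promoters and GENCODE M21 transcripts come from GRCm38, so no coordinate was joined to the expression files.

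Genes with at least 1 FPKM in at least 3 libraries were fitted as log2(FPKM + 1) with limma-trend (limma 3.58.1, R 4.3.3), adjusted by Benjamini-Hochberg over all 11516 genes and called at an adjusted p under 0.05. Fold changes are on that scale and understate the change of low genes. Whole reads were recovered from the FPKM steps within a tolerance of 0.004 reads for 100% of genes. They served for depth and for voom with TMM scaling, and never for the main result. The code was tested on simulated data.

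The members and all gene lists were chosen with earlier results of these data known. All 10 members were named, as were every called gene of an accessory list or otherwise its 3 with the smallest unadjusted p, and the 5 genes most like each pattern by Pearson's r among tested genes averaging 5 FPKM or more. Irf1, Spi1, Cd80, Cd274, H2-Eb2, Ifng, Cxcr2 and the RFX and NF-Y genes were named after their values were seen. 1 marker of the B-cell list is not reported here and was left out of its sums. Promoter patterns were chosen after the sequences were read. Alternatives were other pseudocounts (0.1 and 0.5), filters, median-ratio scaling, a replicate block, voom and leaving out libraries.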

Additional observations from a re-analysis of the deposited data

How the results depend on the processing

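Of 150 log2 fold changes of the 10 class II genes under 15 other settings, 112 kept their sign and 38 did not. They ranged from -0.18 (Ciita) to 0.38 (H2-DMb1), 0 of the 10 were called in any setting, and the lowest limma-trend adjusted p was 0.196. The median over the 10 genes ran from -0.09 to 0.08, within its spread between replicates of 0.14.

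With median-ratio scaling the log2 fold change was 0.01 for H2-Aa, 0.07 for H2-Ab1, H2-Eb1, Cd74 and H2-DMa and 0.06 for H2-DMb2 and H2-Ob. With voom it was 0.00 for H2-Aa, 0.07 for H2-Ab1, 0.06 for H2-Eb1, Cd74, H2-DMa and H2-DMb2 and 0.05 for H2-Ob. With median-ratio scaling and without CXCL14 replicate 1, chosen after seeing the data, it was 0.02 for H2-Aa, 0.08 for H2-Ab1 and H2-Eb1, 0.11 for Cd74, 0.07 for H2-DMa and H2-Ob, 0.09 for H2-DMb2, 0.05 for H2-Oa and 0.01 for Ciita.

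Leaving out each library in turn, the log2 fold change ran from 0.03 (without CXCL14 replicate 2) to 0.25 for H2-DMb1, -0.12 to -0.03 for H2-Aa, -0.15 to -0.03 for H2-Oa, -0.09 to 0.06 for H2-Ab1, -0.13 to 0.08 for H2-Eb1, -0.06 to 0.03 for Cd74, -0.11 to 0.07 for H2-DMa, -0.10 to 0.06 for H2-DMb2, -0.10 to 0.07 for H2-Ob and -0.18 to 0.02 for Ciita. Calls over all genes ran from 0 to 597, over class II transcription from 0 to 4, over endosomal processing from 0 to 2 and over surface partners from 0 to 4, with the highest counts without CXCL14 replicate 1. In that fit with median-ratio scaling, 439 genes were called over all, 2 of class II transcription, 0 of endosomal processing and 4 of the surface partners, and with both libraries numbered 1 left out 15 genes were called over all. The cause was not tested.

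Whether replicate numbers pair the samples was not settled. Deviations from the group mean of same-numbered samples correlated at 0.69, -0.30 and 0.06. CXCL14 replicates 2 and 3 correlated best with untreated replicates 3 and 2, at 0.60 and 0.56. Deviations within a group of 3 are tied to each other, so these correlations cannot decide it. With the replicate block 0 genes were called over all, and the median over the 10 genes was -0.02. With 3 libraries a group, changes smaller than the intervals cannot be resolved, although reads were not limiting.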
